A study of Mus musculus with 6 samples.

Results

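The arrays numbered 1 are the pair, 1 tethered and 1 untethered, whose labels end in the number 1, among 6 arrays of mouse NIH3T3 fibroblasts, an immortalised embryonic line. They were set against the 4 arrays numbered 2 and 3 because they stood apart from those in measured values of the same arrays. All 6 arrays came from 1 clone, clone M, which carries several insertions of lacO, the DNA element that the lac repressor binds. Per the labels, the insertion sits at the periphery of the nucleus in the 3 tethered samples and in its centre in the 3 untethered ones. All samples grew in DMEM with 10% serum to about 80% confluency, and the RNA was total RNA. No source used here names the tethering protein, the treatment that induces it or the meaning of the numbers, so a separate culture, day or labelling batch behind number 1 cannot be told apart. Because 1 clone was used, every value belongs to that clone.

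Number 1 minus numbers 2 and 3 is given in log2 units with tethering as a term in the model, from 2 arrays against 4. It has no p-value, since the split was chosen from the values themselves, and its standard errors (SE) describe the spread of these arrays. The difference is also given apart for tethered and for untethered cells, each from 1 array numbered 1 against 2 others. Fibroblasts in culture that are stressed, or that stop dividing, are known to change their programme of expression. When kinases of the integrated stress response slow translation, the factors ATF4 and CHOP are made and switch on genes of amino acid supply and stress feedback. Cells that leave the cycle switch on brakes on division and lower the genes of DNA replication and mitosis.

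On the first principal component, with 62.1% of the variance, the arrays numbered 1 lay at -30.3 and -38.0 and the others between 5.49 and 26.6. The correlation of log2 intensity was 0.977 between the arrays numbered 1, and 0.920 to 0.959 between them and the others. The fibroblast markers Vim, at 14.4 to 14.6, and Col1a2, at 14.1 to 14.3, were bright in every array, while Lum and Fap did not pass the filter on dim probe sets. The summed intensity of 18 fibroblast markers was lower in number 1, at 89547 to 107429 against 119263 to 120850. Of the marker lists of 7 other lineages, muscle was slightly higher (9497 to 9580 against 8951 to 9306), neural slightly lower (7232 to 7295 against 7375 to 7684), and 5 overlapped. In the neural list Tubb3 read 8.06 and 8.55 in number 1 against 9.24 to 9.60 elsewhere (-1.07, SE 0.14). The list as a whole was not lower, with 4 of 6 tested members above 0 and a median difference of 0.05. Myf5 and Snap25, the dimmest members of the muscle and neural lists, read 5.331 or less in every array. Of the markers with a probe set, 8 of 18 for muscle and 6 of 14 for neural passed that filter. Among them Des of muscle read 10.30 to 10.67 and Sox10 of the neural list 9.97 to 10.15. Whether such signals follow RNA of those lineages was not tested. RNA measures moved with the split in part. The 3′ probe set of the transferrin receptor control read 10.67 and 10.97 in number 1 and 10.53 in untethered number 2, against 11.60 to 11.69 in the other 3. Its 5′ minus 3′ difference was -2.81 and -2.09 in number 1 and -3.07 in untethered number 2, against -1.67 to -1.52. For beta-actin it was -0.31 and -0.29 in number 1 and -0.56 in untethered number 2, against -0.15 to -0.10. The other controls did not follow the split. GAPDH stood at 0.04 and 0.10 in number 1 against -0.06 to 0.09 elsewhere, and pyruvate carboxylase at 0.52 and 0.57 against 0.52 to 0.71. The 18S ribosomal RNA stood at 1.05 in untethered and 0.04 in tethered number 1, against -0.29 to 1.25 elsewhere. The 95th percentile of intensity was 3385 and 3417 in number 1 and 3485 to 3939 elsewhere. The part of RNA quality and of scaling in the differences below was not tested.

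Genes outside the lists of the cell cycle, proteasome and unfolded protein response were ordered by the smaller of the tethered and untethered differences. Those that marked number 1 from above were led by Atf3, Gadd45a, Cdsn, Aldh1l2, Chac1, Snhg12, Pnrc1, Acot2, H2bc22 and Ndrg1. Stress-response genes (Atf3, Gadd45a, Chac1, Ppp1r15a and Nupr1) and host genes of small nucleolar RNAs (Snhg12, Zfas1 and Gas5) were among the 30 named. The genes of that order that marked number 1 from below were led by the peptide hormone gene Cck. It was followed by Akr1c18, Gpr149, Nrp1, Shcbp1, Evi2a, Pbk, Thbs1, Cep55 and Ereg. Shcbp1, Pbk and Cep55 act in cell division without being in those lists, and the matrix gene Tnc came further down. Of 11846 genes tested, 1419 (12%) lay above all 4 other arrays in both arrays numbered 1, and 2963 (25%) lay below. At least 2-fold and without overlap, 53 genes (0.447%) were higher and 196 (1.65%) lower. These shares come from the contrast that chose the split and describe it only. Of the 53, 46 lay outside the lists of the cell cycle, proteasome and unfolded protein response. Of the 196, 160 did. The 46 still include Atf3, Chac1, Ppp1r15a, Nupr1 and other members of the list of ATF4 and CHOP targets described below, and the 160 include genes of mitosis.

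The direction of the whole distribution depended on scaling. Genes higher made up 32.4% of those without overlap and 21.3% of those at least 2-fold different, and 52.6% and 33.1% after quantile normalization. All 53 higher genes and 158 of the 196 lower ones were still in these sets after that normalization. Bright genes leaned further down: the median difference was 0.01 in the dimmest of 4 equal bins of genes and -0.12 in the brightest, where 41.6% of genes lay below the other arrays, against 14.0% in the dimmest.

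Among the higher genes the difference was larger in tethered cells in 52 of 53, with medians of 1.64 in tethered and 0.85 in untethered cells. Untethered number 2 was the highest of the other 4 arrays in 50 of the 53. The same array had a low 3′ signal of the transferrin receptor control. The gene behind that control, Tfrc, was itself lower in number 1 (-1.13, SE 0.16). Its brightest probe set read 12.71 in untethered number 2, and 12.74 to 12.95 in tethered number 2 and both arrays numbered 3. Without untethered number 2 the count of higher genes was 83. Without untethered number 1 it was 135 and without tethered number 1 it was 33, each then resting on a single array numbered 1. Of the 53 genes, 5 passed the filter on dim probe sets through number 1 alone, and the 24 with several tested probe sets differed in the same direction on all of them.

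**Figure D1:**
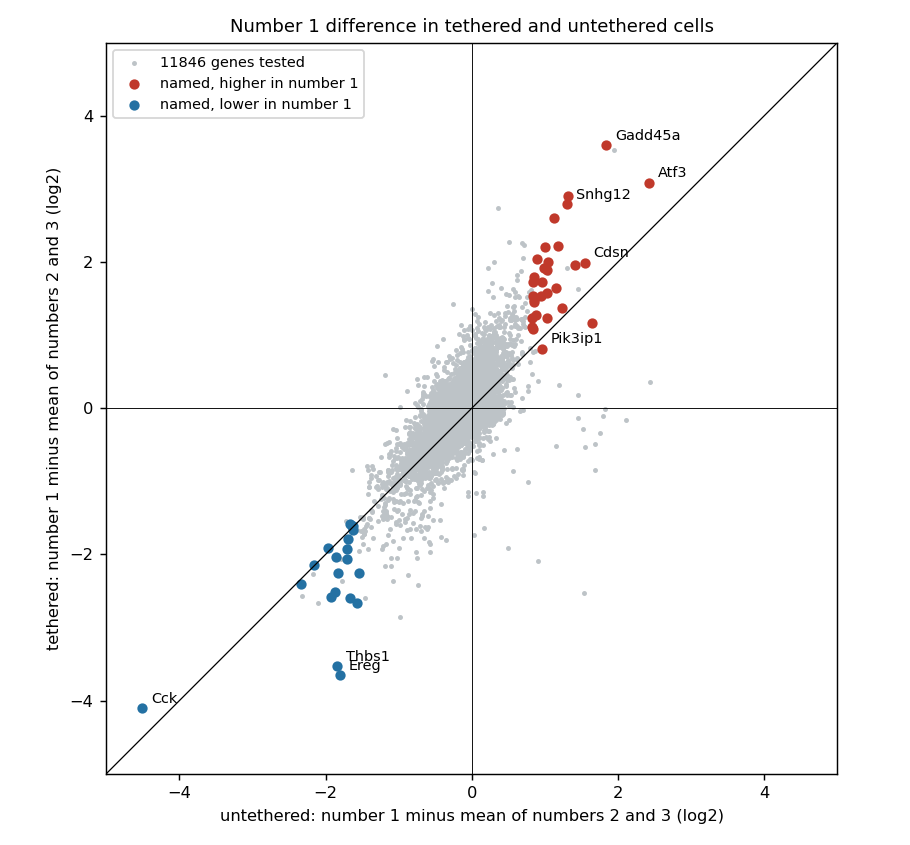
Number 1 minus the mean of numbers 2 and 3 (log2) for each of 11846 genes, in untethered cells on the horizontal and in tethered cells on the vertical axis; red and blue points are the 30 named higher and 20 named lower genes, and the diagonal marks equal differences. Atf3, Gadd45a and Snhg12 lie above the diagonal with a larger difference in tethered cells, Cck lies at -4.51 and -4.10, and most genes lie near 0.

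Promoter windows of genes that led the higher side are shown first, because 3 of them hold the 8-letter element TGATGCAA, the form in which composite CCAAT-enhancer-binding-protein and ATF sites are commonly written. The windows are those of RefSeq (GRCm38.p6), 250 bases before to 50 after a gene's start, and both strands were searched. Of 30 named higher genes 27 had a window, and Atf3, Chac1 and Nupr1 held the element. It was also found at Fgf21, Slc7a11 and Vldlr of the list of ATF4 and CHOP targets, where 6 of 27 genes with a window held it. Of these Slc7a11 and Vldlr differed by 0.05 and 0.09 with overlap, so the element was not confined to genes higher in number 1. It occurs in 0.895% of all 32851 windows, which belong to 27025 genes. A gene counted when any of its windows held the element, so counts of genes and that share of windows differ in unit. At Atf3, Chac1 and Nupr1 the element reads TTGCATCA on the gene's strand, shown in capitals with 40 bases on either side. The stretches lie at chr1:191183396-191183483 (minus strand), ending upstream of the start of Atf3, at chr2:119351009-119351096 (plus strand) upstream of Chac1 and at chr7:126625533-126625620 (minus strand) upstream of Nupr1, outside the transcribed part in these models. The near end of the element lies 103, 186 and 103 bases before the start, in that order. Of the 20 named lower genes 11 had a window and 0 held the element. A match is a description of letters and not of a bound site.
Atf3: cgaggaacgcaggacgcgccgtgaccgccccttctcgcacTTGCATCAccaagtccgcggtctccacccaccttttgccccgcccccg
Chac1: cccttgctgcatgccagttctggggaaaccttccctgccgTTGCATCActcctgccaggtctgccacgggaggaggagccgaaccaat
Nupr1: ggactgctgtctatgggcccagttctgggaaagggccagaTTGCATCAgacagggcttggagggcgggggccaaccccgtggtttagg

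Some transcription factors of the stress response were among the largest differences, while others, Atf4 among them, overlapped with the other arrays. Atf3, a repressor induced by many stresses, read 11.75 in untethered and 11.64 in tethered number 1. The other arrays read 9.95 and 8.70 in untethered numbers 2 and 3 and 8.89 and 8.23 in tethered numbers 2 and 3. Both arrays numbered 1 were therefore well above the other 4, and the difference was 2.76 (SE 0.39), or 6.76-fold. Ddit3, which encodes CHOP and belongs to the unfolded protein response list, read 12.31 and 13.23 in untethered and tethered number 1 against 9.68 to 10.86 elsewhere, a difference of 2.74 (SE 0.41). Nupr1, a small stress-induced chromatin protein, read 12.03 and 12.30 in number 1 against 11.49 in untethered number 2 and 10.27 to 10.49 in the other 3 (difference 1.52, SE 0.33). Atf5, a relative of ATF4, differed by 1.13 (SE 0.35), with 12.35 and 12.47 in number 1, 11.97 in untethered number 2 and 10.66 to 11.38 in the other 3. Atf4 itself differed by 0.42 (SE 0.23) with overlap. It read 12.76 in untethered and 13.50 in tethered number 1, and 12.48 to 12.92 elsewhere. Cebpb differed by 0.55 (SE 0.22) with overlap and Cebpg by 0.46 (SE 0.16) without.

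Feedback and damage genes stood beside them. Gadd45a, a stress sensor that binds PCNA and holds back the cell cycle, read 10.31 in untethered and 11.41 in tethered number 1. In the others it read 8.89 and 8.04 (untethered 2 and 3) and 7.99 and 7.65 (tethered 2 and 3). The groups did not overlap, the difference was 2.72 (SE 0.43) or 6.58-fold, and Gadd45a passed the filter on dim probe sets through number 1 alone. Ppp1r15a (GADD34), the phosphatase subunit that restores translation after stress, read 11.36 and 12.22 in number 1 and 9.61 to 10.73 elsewhere, a difference of 1.86 (SE 0.40). Chac1, an enzyme that breaks down glutathione, read 12.73 and 13.09 in number 1. It read 11.78 and 11.06 in untethered and 10.25 and 10.12 in tethered numbers 2 and 3, which left it 2.11 (SE 0.38) higher in number 1.

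Genes of one-carbon and amino acid supply were uneven. Aldh1l2, a mitochondrial folate enzyme, was 1.68 (SE 0.41) higher, with 12.56 and 12.80 in number 1 and 10.42 to 11.82 elsewhere. Slc6a9, a glycine transporter, was 1.60 (SE 0.41) higher, and Slc3a2, the heavy chain of several amino acid transporters, 0.87 (SE 0.20). By contrast Asns, asparagine synthetase, differed by 0.24 (SE 0.17) with overlap, Phgdh of serine synthesis by 0.00, and Psat1 of the same pathway was 0.31 lower. Of the list of ATF4 and CHOP targets, chosen after values of these arrays were seen, 31 members were tested. In both arrays numbered 1, 20 (64.5%) lay above and 1 (3.2%) below the other 4, against 12% and 25% of all genes. The median difference was 0.55, against -0.03 over all genes tested. The list's median was 0.92 in tethered and 0.27 in untethered cells. It shares Ddit3, Trib3 and Ero1a with the unfolded protein response list. The list of amino acid synthesis and transport, 24 tested, had 6 members (25%) above and 4 (16.7%) below, with a median of 0.26.

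**Figure D2:**
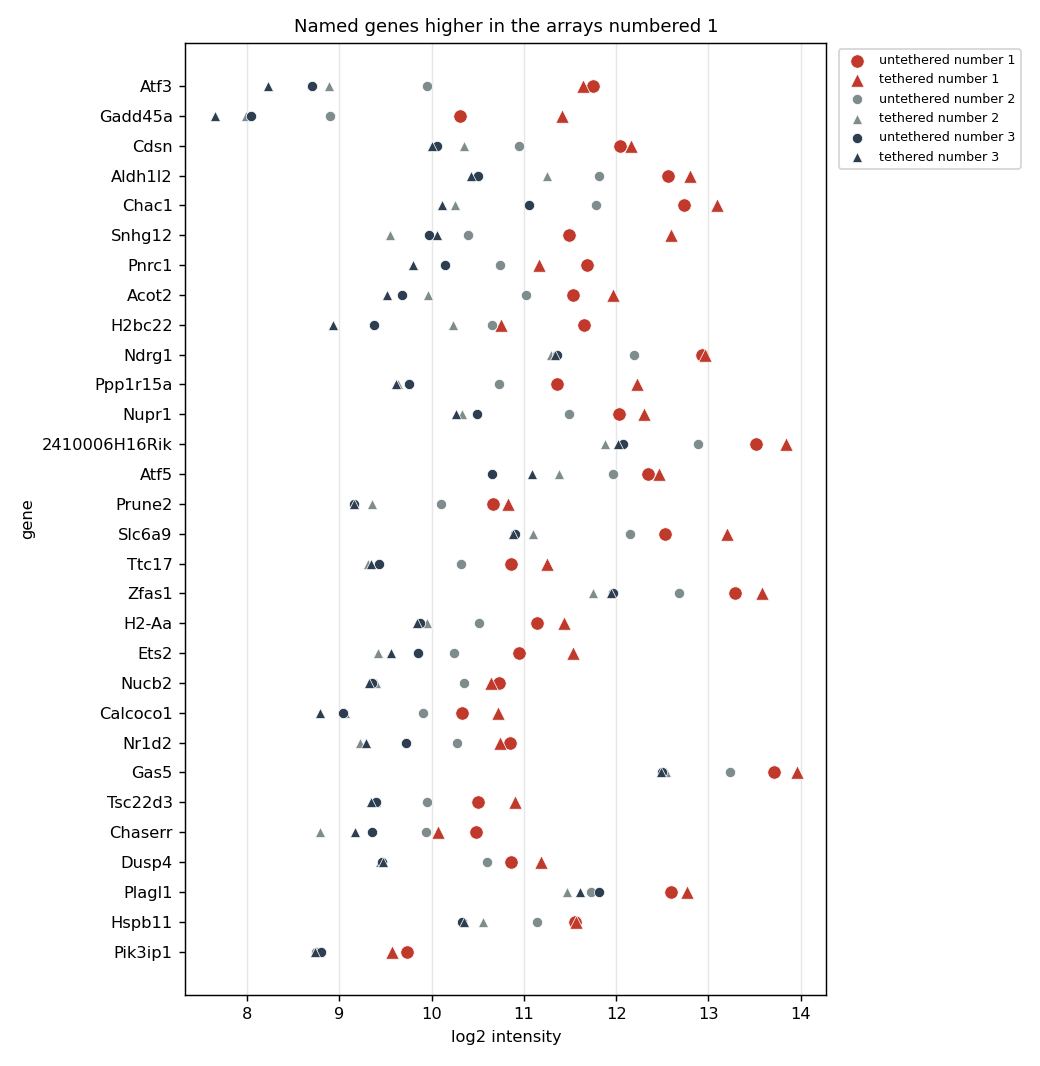
Log2 intensity of the 30 named higher genes on each array, 1 row a gene, in order of the smaller of the tethered and untethered differences; circles are untethered and triangles tethered arrays, red for number 1, grey for number 2 and dark blue for number 3. Both red points lie to the right of the other 4 in every row, and the grey circle, untethered number 2, is the next highest in 28 rows.

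Host genes of small nucleolar RNAs formed a second group. These RNAs guide the modification of ribosomal RNA and are cut from the introns of genes whose spliced RNA often codes for no protein and is degraded when it is translated. Snhg12 read 11.49 in untethered and 12.60 in tethered number 1, against 10.40 and 9.98 in untethered and 9.55 and 10.06 in tethered numbers 2 and 3. It was 2.05 (SE 0.35) higher, or 4.14-fold, with no overlap. Zfas1 read 13.28 and 13.58 in number 1 and 11.75 to 12.69 elsewhere, a difference of 1.34 (SE 0.25). Gas5, named for growth arrest and listed there too, read 13.72 and 13.96 in number 1 and 12.49 to 13.23 elsewhere, a difference of 1.15 (SE 0.23). Its 4 probe sets ran from 0.08 to 1.42. Snhg6 was 0.70 (SE 0.23) higher.

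Not all hosts followed. Snhg8 (0.51) and Snhg1 (0.42) were high in tethered number 1 alone and overlapped in untethered cells, and Snhg3 was 0.68 (SE 0.18) lower. Of 15 hosts tested, in a list also chosen after values were seen, 5 (33.3%) lay above and 2 (13.3%) below the other arrays. Among all genes 12% lay above and 25% below. The median of the hosts was 0.19, with 0.68 in tethered and 0.06 in untethered cells. Starts of these genes are known for a run of pyrimidines, as in genes of ribosomal proteins. A run of at least 5 C or T letters that covers the RefSeq start was present in 6 of 13 hosts with a window and in 10.1% of all windows. A host counted when any of its windows held the run, so the count of hosts and the share of windows differ in unit. Shown are 30 bases on either side of the start for Snhg12, Gas5 and Snhg8, with the run in capitals, so that a host without overlap and a host with overlap can be set side by side. They lie at chr4:132308648-132308707 (plus strand), chr1:161035136-161035195 (plus strand) and chr3:123508307-123508366 (minus strand) of GRCm38.p6, from just upstream into the first exon. Runs of 9, 6 and 7 letters cover these starts, in hosts that differed by 2.05, 1.15 and 0.51.
Snhg12: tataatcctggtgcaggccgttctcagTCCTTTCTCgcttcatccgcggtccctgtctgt
Gas5: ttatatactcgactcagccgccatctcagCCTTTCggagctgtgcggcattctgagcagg
Snhg8: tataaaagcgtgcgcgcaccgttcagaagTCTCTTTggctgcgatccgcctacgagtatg

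Brakes on proliferation and quiescence genes were higher in part. Of 30 members tested, 14 (46.7%) lay above and 4 (13.3%) below the other arrays, against 12% and 25% of all genes. Their median was 0.17. Tob1, an antiproliferative protein that also acts in mRNA decay, read 11.34 and 11.84 in number 1 against 10.14 to 10.81 elsewhere (difference 1.10, SE 0.23). Hbp1, a repressor of cell cycle genes, was 0.96 (SE 0.19) higher, with 11.84 and 11.69 in number 1 and 10.41 to 11.42 elsewhere. Pik3ip1, an inhibitor of PI3 kinase, had a small but even difference, with 9.74 and 9.57 in number 1 and 8.73 to 8.80 in the other 4 arrays. It was 0.89 (SE 0.07) higher, passed the filter through number 1 alone and was, with Plagl1, one of the 2 named higher genes for which untethered number 2 was not the highest of the others. Ccng2, a cyclin that rises in arrested cells, was 0.57 (SE 0.07) higher. Pdgfra, the receptor for a platelet-derived growth factor, and Cdkn2c, a cell cycle inhibitor that dividing cells also express, were lower, each by 1.20 (Cdkn2c -1.20, SE 0.17), though the 3 probe sets of Pdgfra ran from -1.20 to 0.05. Those of Tob1 ran from 0.17 to 1.10 and those of Hbp1 from 0.07 to 1.23. 

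Several regulators outside these lists shared the pattern. Pnrc1, a nuclear receptor coactivator that is also known to act against growth, read 11.68 in untethered and 11.16 in tethered number 1 and 9.79 to 10.74 elsewhere. It was 1.30 (SE 0.17) higher, and the untethered array numbered 1 read above the tethered one. Plagl1 (ZAC1), an imprinted zinc-finger inhibitor of growth, read 12.59 and 12.77 in number 1 against 11.47 to 11.82, a difference of 1.03 (SE 0.11), with a second probe set at 0.14. Tsc22d3 (GILZ), induced by glucocorticoids and by FoxO factors, was 1.18 (SE 0.21) higher, and its 4 probe sets ran from 0.05 to 1.18. As means over probe sets, Plagl1 differed by 0.58, Tsc22d3 by 0.77 and Gas5 by 0.74. Ndrg1, a gene of hypoxia and differentiation, read 12.93 and 12.96 in number 1 and 11.29 to 12.19 elsewhere, a difference of 1.40 (SE 0.24). The list of glycolysis and hypoxia, to which it belongs, had a median of 0.01. In that list 5 of 27 members (18.5%) lay above and 2 (7.4%) below the other arrays, against 12% and 25% of all genes.

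The clock list held 14 tested genes, of which 6 (42.9%) lay above and 0 below the other arrays, with a median of 0.11. Among all genes 12% lay above and 25% below. Nr1d2 (REV-ERB beta), a repressor of the clock loop, read 10.85 and 10.74 in number 1 and 9.23 to 10.27 elsewhere, a difference of 1.17 (SE 0.20). A second probe set of Nr1d2 stood at 0.22, and the mean of both at 0.70. Nfil3 was 0.92 (SE 0.19) higher, Dbp, an output activator, 0.65 (SE 0.12), and Per1, a repressor, 0.35 (SE 0.10). Nfil3 and Dbp act in opposite ways on the same sites, and both were higher.

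Lysosome and autophagy genes leaned upward by small amounts. Of 33 lysosomal genes, 12 (36.4%) lay above and 1 (3.0%) below the other arrays, against 12% and 25% of all genes. Their median was 0.18. Neu1, the lysosomal sialidase, read 9.91 in untethered and 10.18 in tethered number 1, against 9.57 and 9.02 in untethered and 8.43 and 8.40 in tethered numbers 2 and 3. It was 1.19 (SE 0.28) higher and passed the filter through number 1 alone. Ctsa, which protects that enzyme, was 0.74 (SE 0.20) higher, with a second probe set at -0.05, and Mcoln1, a lysosomal calcium channel, 0.62 (SE 0.09), while Ctsl, a lysosomal protease, was 0.19 lower. Of 23 autophagy genes, 8 (34.8%) lay above and 1 (4.3%) below, with a median of 0.13. Sqstm1 (p62), the receptor that carries ubiquitinated cargo, read 13.92 and 13.93 in number 1 and 12.79 to 13.26 elsewhere, a difference of 0.94 (SE 0.11). The receptor Nbr1 was 0.67 (SE 0.18) higher, and Calcoco1, a receptor of selective autophagy outside the list, 1.33 (SE 0.31).

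Other named genes belonged to no list that differed. Cdsn, corneodesmosin of the skin's outer layer, read 12.05 and 12.17 in number 1 and 10.01 to 10.95 in the others, a difference of 1.77 (SE 0.27). Of 12 epithelial markers 4 passed the filter on dim probe sets (Epcam, Krt14, Cldn3 and Cldn4), with a median difference of 0.05. Of those below it, Krt5 lay at 9.0 or below in every array. Cdh1 read 7.12 and 7.80 in number 1 and 5.96 to 6.72 elsewhere. Acot2, a mitochondrial thioesterase of fatty acyl-CoA, was 1.70 (SE 0.42) higher and H2bc22, a histone H2B gene, 1.40 (SE 0.47). H2bc22 read 11.66 in untethered number 1 but 10.75 in tethered number 1, close to the 10.65 of untethered number 2. Prune2 (1.30, or 0.66 as a mean over probe sets), Ttc17 (1.46), Nucb2 (1.08), Chaserr (0.96), Hspb11 (0.97) and 2410006H16Rik (1.46) completed the order. H2-Aa, an antigen presentation gene, was 1.24 (SE 0.21) higher on the brightest of 4 probe sets, the one that passed the filter. The interferon and antigen presentation list had a median of 0.08 over 18 genes. Of these 3 (16.7%) lay above and 1 (5.6%) below the other arrays, against 12% and 25% of all genes.

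Lists of growth factor signalling were split between directions. Of 20 tested genes of feedback on the kinase ERK, 10 (50%) lay below and 4 (20%) above the other arrays. Among all genes 25% lay below and 12% above. The median of the list was -0.30. Ereg, the growth factor epiregulin, read 9.16 in untethered and 7.64 in tethered number 1, against 10.80 and 11.13 in untethered and 11.03 and 11.57 in tethered numbers 2 and 3. It was lower by 2.73 (difference -2.73, SE 0.42), with a mean in number 1 below the filter. Dusp6, a phosphatase that switches ERK off, was lower (-1.58, SE 0.32), as was Phlda1 (-1.57, SE 0.37), and both were lower in tethered than in untethered number 1. Fosl1, an AP-1 subunit that ERK stabilises, read 11.10 and 10.20 in number 1 and 12.07 to 12.42 elsewhere (-1.57, SE 0.22). In the same list Ets2, a transcription factor, was 1.47 (SE 0.26) higher and Dusp4, a nuclear phosphatase of the same family as Dusp6, 1.28 (SE 0.35) higher. A second probe set of Ets2 stood at 0.52. Etv5 differed by 0.09 on its brightest probe set and by -1.87 on another, so its value depends on the probe set.

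The largest difference of any named gene was that of Cck, which encodes the peptide hormone cholecystokinin. Cck read 7.21 and 7.19 in untethered and tethered number 1, below the filter on dim probe sets (8.93). It read 11.69 and 11.73 in untethered and 11.14 and 11.43 in tethered numbers 2 and 3. It was lower by 4.30 (difference -4.30, SE 0.13), and the tethered and untethered differences were alike at -4.10 and -4.51. Gpr149, an orphan receptor, read 9.06 and 9.41 in number 1 and 10.87 to 11.72 elsewhere (-2.15, SE 0.21). Akr1c18, which reduces progesterone, read 9.19 and 8.97 against 11.03 to 11.77 (-2.37, SE 0.22). Nrp1, a co-receptor of semaphorins and of VEGF, read 9.16 and 8.67 against 11.001 to 11.38 (-2.26, SE 0.17), and its 3 tested probe sets were all lower, from -2.26 to -1.32. Evi2a was lower as well (-2.19, SE 0.22). The mean of number 1 lay below the filter in 9 of the 20 named lower genes (Cck, Nrp1, Evi2a, Thbs1, Ereg, Tacc3, Spc24, Espl1 and Fry) and in 34 of the 196. No detection calls were used here, so how far such dim values follow the RNA level was not tested.

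**Figure D3:**
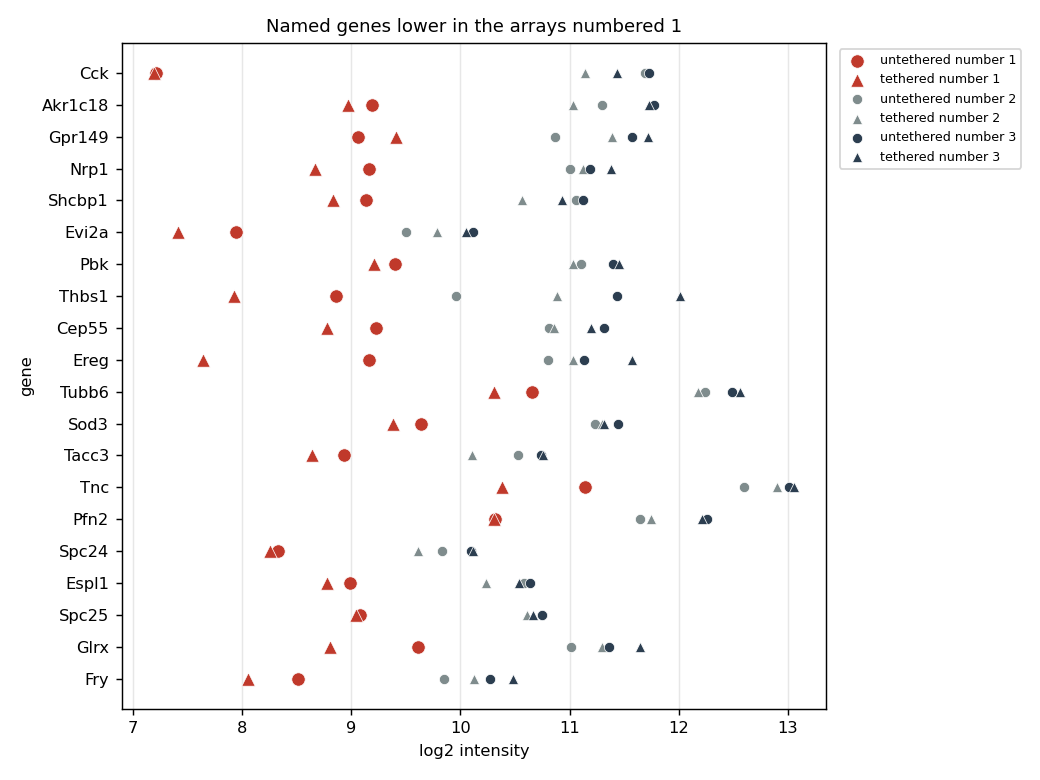
Log2 intensity of the 20 named lower genes on each array, 1 row a gene, with circles for untethered and triangles for tethered arrays, red for number 1, grey for number 2 and dark blue for number 3. Both red points lie to the left of the other 4 in every row, and Cck, in the top row, shows the widest gap, from 7.21 to 11.14.

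Some matrix and adhesion genes were lower. Of 29 matrix glycoproteins and proteoglycans tested, 8 (27.6%) lay below and 0 above the other arrays, near the 25% of all genes that lay below, and their median of -0.05 was near that of all genes. Thbs1 (thrombospondin 1) read 8.86 in untethered and 7.92 in tethered number 1, against 9.96 and 11.44 in untethered and 10.88 and 12.01 in tethered numbers 2 and 3. The difference was -2.68 (SE 0.59), with a wide spread among the others. Tnc (tenascin C) read 11.14 and 10.38 in number 1 and 12.60 to 13.06 elsewhere (-2.13, SE 0.23), with a second probe set at -0.76. Of 16 collagen genes tested, 9 lay below and 3 above the other arrays, with a median of -0.45 (-0.30 after quantile normalization). The fibrillar collagen gene Col3a1 was lower (-1.18, SE 0.18), with 12.04 and 11.18 in number 1 and 12.72 to 12.93 elsewhere, while Col5a2, of another fibrillar collagen, was 0.46 (SE 0.12) higher. Of 16 fibroblast markers tested, 9 lay below and 1 above. Twist2, a mesenchymal transcription factor, read 10.63 and 10.38 in number 1 and 11.67 to 12.06 elsewhere (-1.35, SE 0.15), and Snai2, another, was 0.31 (SE 0.07) higher.

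Integrins and syndecans had 7 of 18 tested members (38.9%) below and 1 above, with a median of -0.22 (-0.11 after quantile normalization). Of all genes 25% lay below, and 41.6% in the brightest of 4 equal bins. Cd44, the hyaluronan receptor, read 12.29 and 12.01 in number 1 against 13.27 to 13.44 (-1.22, SE 0.10), and its 3 probe sets were all lower. Sdc1, a cell surface proteoglycan, was lower too (-1.14, SE 0.12). Of 25 genes of TGF-beta and BMP response, 9 (36%) lay below and 1 above, with a median of -0.12. Ltbp1, which stores latent TGF-beta in the matrix, read 9.83 and 9.12 against 10.86 to 11.25 (-1.58, SE 0.19), and Fstl1, a secreted regulator of BMP signals, was lower (-1.53, SE 0.23). In the list of actin and SRF targets 16 of 26 lay below and 2 above, with a median of -0.34 (-0.16 after that normalization). Its member Csrp2, a LIM protein, was lower by 1.21 (-1.21, SE 0.29), and Tpm4, a tropomyosin, by 1.07 (-1.07, SE 0.17). Of 23 genes of microtubules and cilia 11 (47.8%) lay below and 1 above. Tubb6, a beta-tubulin, read 10.65 and 10.31 in number 1 and 12.18 to 12.56 elsewhere (-1.89, SE 0.15), with a second probe set at -0.10. Pfn2, a profilin that binds actin, differed by -1.65 (SE 0.20).

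Some genes against oxidants were lower, most of them by less than 2-fold. Of 27 genes of the NRF2 list, 11 (40.7%) lay below and 2 above the other arrays. Of all genes 25% lay below, and 41.6% in the brightest of 4 equal bins. The list's median was -0.20, at -0.36 in untethered and 0.02 in tethered cells, and -0.04 after quantile normalization. Nqo1, a quinone reductase, read 9.31 in untethered and 10.21 in tethered number 1 and 10.83 to 11.19 elsewhere (-1.24, SE 0.20). Gsr, glutathione reductase, was lower (-0.76, SE 0.11), and Ephx1, an epoxide hydrolase of the list, was 0.47 (SE 0.16) higher. Sod3, the secreted superoxide dismutase and no member of that list, read 9.64 and 9.38 against 11.23 to 11.44 (-1.82, SE 0.10), and Glrx, a glutaredoxin, 9.62 and 8.80 against 11.01 to 11.64 (-2.12, SE 0.26). Second probe sets stood at -0.95 for Sod3 and -1.09 for Glrx.

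Mitochondrial genes were lower by small amounts, whose size depended on scaling. Of 44 tested genes of the respiratory chain, 37 lay below and 0 above the other arrays, against 25% of all genes below. Their median was -0.34, at -0.33 in tethered and -0.36 in untethered cells. Ndufa5, a subunit of complex I, read 10.62 and 10.09 in number 1 and 10.88 to 11.40 elsewhere (-0.83, SE 0.12), and none of the list differed 2-fold. After quantile normalization the list stood at -0.19. Of 38 genes of the mitochondrial ribosome and of import, 27 lay below and 1 above, with a median of -0.35, or -0.22 after quantile normalization. Mrpl18, of the large subunit, differed by -1.17 (SE 0.15). Hspa9, the mitochondrial HSP70 that drives import, was 0.29 higher. Of 20 genes of the tricarboxylic acid cycle, 8 (40%) lay below and 1 above (median -0.26, or -0.10 after quantile normalization). In the brightest of 4 equal bins of all genes 41.6% lay below. Idh3a stood at -0.75 (SE 0.14) on the brightest of 3 probe sets (-0.75 to -0.04) and the cytosolic enzyme gene Idh1 at 0.35 (SE 0.13).

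Genes of protein folding in the cytosol, ribosome assembly and splicing were also lower for the most part. Of 27 cytosolic chaperones 16 lay below and 0 above, with a median of -0.27, or -0.11 after quantile normalization. Ahsa1, which activates HSP90, read 11.36 and 11.37 in number 1 and 11.92 to 12.28 elsewhere (-0.79, SE 0.11). In ribosome biogenesis 20 of 38 lay below and 2 above, with a median of -0.28 (-0.17 after it), and Nhp2, a protein of small nucleolar RNA particles, was lower by 0.87 (-0.87, SE 0.09). Cytosolic ribosomal proteins, by contrast, had a median of 0.02 over 32 genes, with 5 above and 4 below. Splicing and RNA-binding proteins had 22 of 33 members below and 1 above, with a median of -0.35 (-0.16 after it). Srsf1, a splicing factor, read 12.15 and 12.31 against 13.07 to 13.21 (-0.91, SE 0.08), and all 6 of its probe sets were lower, from -1.19 to -0.82. Clk1, a kinase that acts on such factors, was 0.51 (SE 0.17) higher. Factors of translation were mixed, with 12 of 25 (48%) below and 6 above and a median of -0.17 (-0.03 after it), among them Eif4e (-0.64) and Eif4a2 (0.34). Apoptosis regulators had 11 of 23 (47.8%) below and 2 above and a median of -0.14 (-0.03 after it), with Bak1 at -0.63 and Bid, which passed the filter through number 1 alone, at 0.67. Transport from the endoplasmic reticulum to the Golgi had 12 of 34 (35.3%) below and 3 above, with Sec13 at -0.76 (SE 0.15). The median of that list, -0.12, became 0.03 after quantile normalization. Of all genes 25% lay below the other arrays, and 41.6% in the brightest of 4 equal bins.

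The lists left aside by the question asked here gave the frame. The unfolded protein response had 22 of 24 members above the other arrays and a median of 0.71. The proteasome had 30 of 31 below (-0.71), replication 23 of 26 below (-0.98) and mitosis 27 of 29 below (-1.31). Among all genes 12% lay above and 25% below. Part of the named lower genes belonged to mitosis without being in that list. Shcbp1, Pbk, Cep55, Tacc3, Spc24, Spc25 and Espl1, which act at the spindle, kinetochore or midbody or in chromosome separation, differed by -2.04 to -1.62. The 3 tested probe sets of Tacc3 ran from -1.97 to -0.17. Spc25, of the kinetochore, read 9.08 and 9.05 in number 1 and 10.61 to 10.75 elsewhere, with the small SE of 0.07. Fry, at -1.90, was lower on one tested probe set, while a second stood at 0.17.

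Other lists had pooled medians near that of all genes, in some from opposite values in the arrays numbered 1. The median of p53 targets was 0.11 over 17 genes, with 5 (29.4%) above and 5 (29.4%) below, against 12% and 25% of all genes. Gadd45a, which p53 also controls, was nevertheless among the largest differences. Cholesterol synthesis stood at 0.11, from 0.38 in tethered and -0.17 in untethered cells, and aminoacyl-tRNA synthetases at 0.11, from 0.41 and -0.13. Targets of NF-kappaB and chemokines stood at 0.02, but the mean deviation of the members from each gene's mean over the 6 arrays was 0.44 in untethered and -0.36 in tethered number 1. For the immediate early genes it was 0.73 and -0.47. Of these 24, 4 (16.7%) lay above and 3 (12.5%) below the other arrays, with Atf3 and Klf4 (0.60) above and Fosl1 and Ier5 (-0.79) below.

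**Figure D4:**
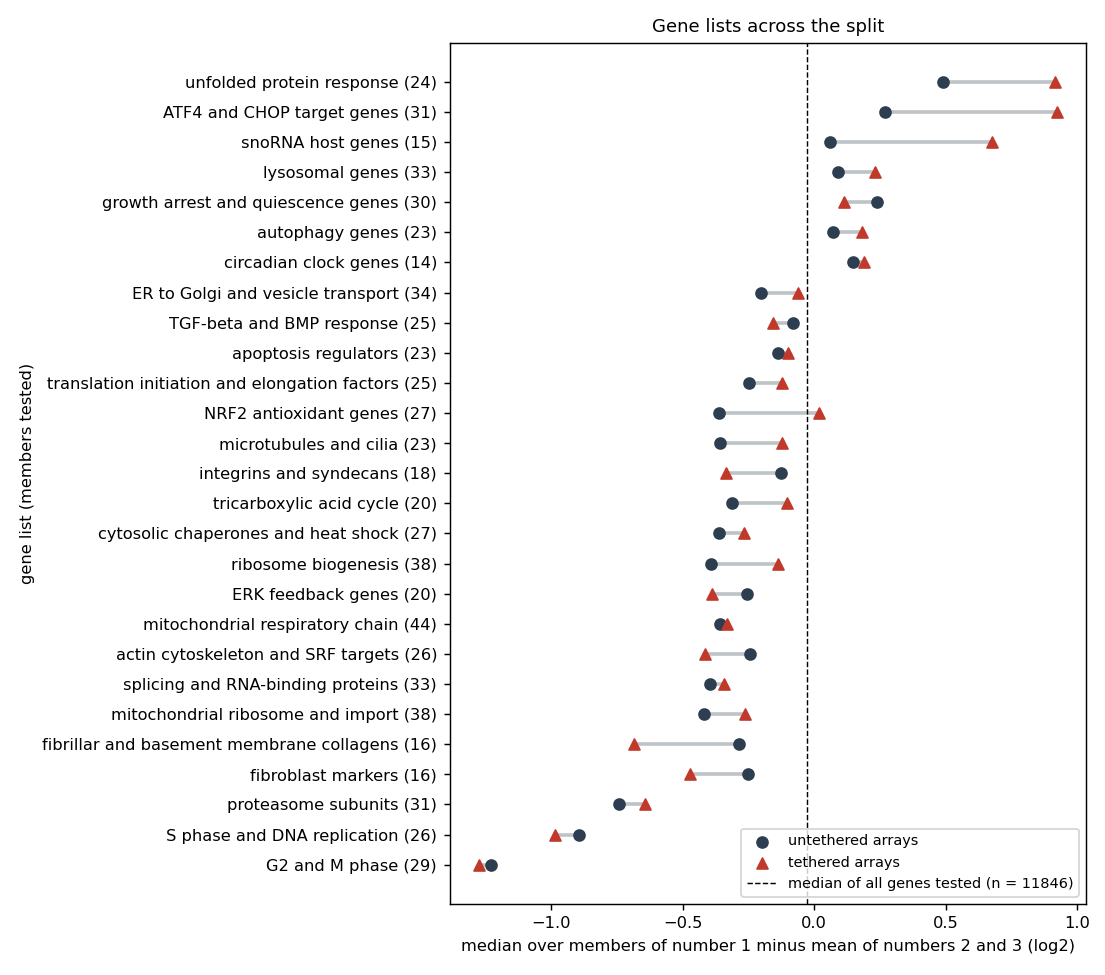
Median over the tested members of each gene list of number 1 minus the mean of numbers 2 and 3 (log2), for untethered (circles) and tethered arrays (triangles), with the number of members tested in brackets and the median of all genes tested as a dashed line. The unfolded protein response lies at 0.49 and 0.91, highest in untethered arrays and just under the ATF4 and CHOP targets in tethered ones. Mitosis lies lowest at -1.23 and -1.28. The hosts of small nucleolar RNAs and the ATF4 and CHOP targets have wide bars, 0.06 to 0.68 and 0.27 to 0.92, and the respiratory chain a narrow bar at about -0.33 to -0.36.

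The contrast of tethered with untethered arrays is balanced over the split, so number 1 does not move its estimate. The split was chosen from the same arrays, though, and as a term it enters the residual spread of the test. With that term, limma (Benjamini-Hochberg, two-sided, 3 tethered against 3 untethered arrays) called none of the 22518 probe sets (0%). The lowest adjusted p was 0.808. Unadjusted, p fell under 0.05 for 1092 of them, 235 higher and 857 lower in tethered cells, and chance alone would give 1125.9. Thbs2, a thrombospondin, came first. It read 10.47, 10.98 and 10.996 in untethered and 9.93, 10.54 and 10.50 in tethered numbers 1, 2 and 3, lower in the tethered array of each number by about the same amount (-0.49, SE 0.06). Adamts1, a matrix protease, stood at -0.40 (SE 0.07), with number 1 higher than the others in both states. Klf6 and Ier3, both immediate early genes, stood at -0.67 (SE 0.11) and -0.57 (SE 0.10). None passed the threshold. Of the 50 genes named for the split, the smallest adjusted p of this test was 0.808.

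Whether tethered and untethered cells differed by another amount in number 1 than in numbers 2 and 3 was tested with limma's interaction term. Again 0 of 22518 probe sets passed (0%). The lowest adjusted p was 0.272, and 1188 probe sets had p under 0.05 before adjustment, 871 with a value above 0 and 317 below. Number 1 holds 1 array of each state, and the lack of calls says nothing on whether the larger differences of tethered cells among the higher genes, described above, were real for single genes. Its count of calls changed when untethered number 2 or 3 was left out. Each such fit sets 1 untethered array against 1 across the split, so no conclusion is drawn from it.

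Of the 10 genes with the smallest p in that test, several are inflammatory or immediate early genes, and 9 had an interaction below 0. Ccl2, a chemokine that attracts monocytes, read 12.56 in untethered but 9.40 in tethered number 1, and 11.39 to 11.72 in all others, so the arrays numbered 1 lay on opposite sides of them (interaction -2.99, SE 0.19, limma adjusted p = 0.272). Jun, an AP-1 subunit, read 13.11 and 10.49 in untethered and tethered number 1 and 12.32 to 12.69 elsewhere (-2.41, SE 0.19). Ccl7, another chemokine, read 10.92 and 9.25 against 10.05 to 10.37. Tnfaip3 (A20), which limits NF-kappaB, and Hes1, a repressor downstream of Notch, were high in untethered number 1 alone, at 10.57 and 10.90. Each other array, tethered number 1 included, lay between 8.92 and 9.07 for Tnfaip3 and between 9.27 and 9.52 for Hes1. Fgf7, a growth factor for epithelia, and Sgk1, a serum-induced kinase, were below the others in both arrays numbered 1 and lower in the tethered one, at 9.25 and 11.12. Mrgpra4, a receptor, and Ptgr2, a reductase of prostaglandins, were low in tethered number 1 alone, at 8.59 and 7.97. Ampd3, an AMP deaminase, differed the other way (1.34, SE 0.15), with 9.84 in tethered number 1 and 8.96 and 9.001 in tethered numbers 2 and 3.

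**Figure D5:**
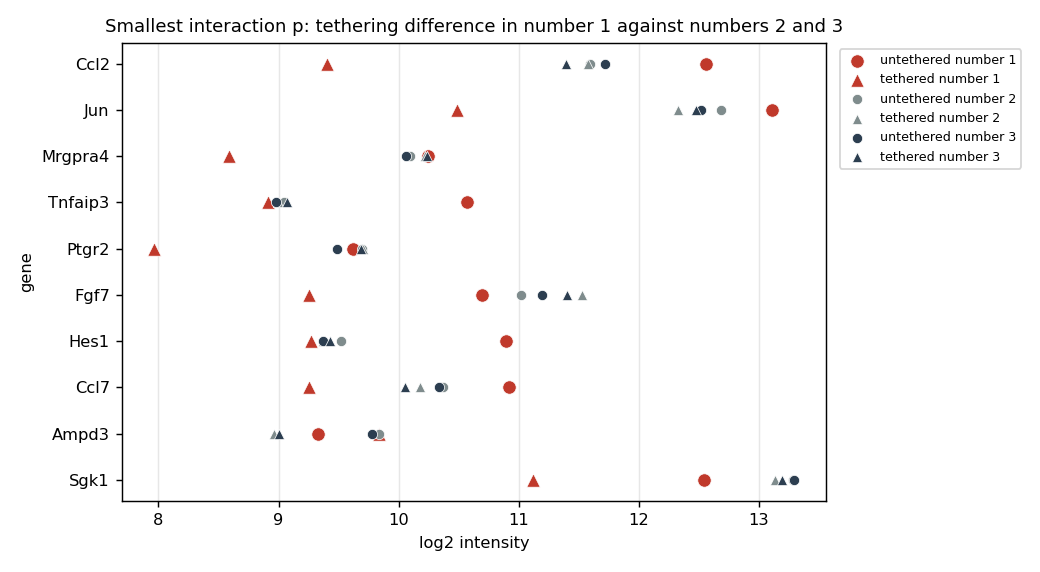
Log2 intensity on each array of the 10 genes with the smallest interaction p, circles untethered and triangles tethered, red for number 1, grey for number 2 and dark blue for number 3. The red circle and triangle of Ccl2 lie at 12.56 and 9.40, on both sides of the other 4 arrays, and Tnfaip3 and Hes1 have their red circle alone to the right. The adjusted p was above 0.05 for each gene.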

How the data were processed

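Total RNA of 6 samples was hybridised to Affymetrix expression arrays. The deposited values, as the authors processed them, are 1 linear intensity per probe set and array. No source used here gives the summary or scaling method. Of 45101 probe sets, 64 controls were left out, 34945 carried 1 gene symbol in the platform annotation, 932 several and 9160 none. Symbols were updated through a RefSeq gene table, where 99.4% of those with 1 symbol were found. Median intensities lay between 482 and 491, and precision is limited by how few arrays there are.

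Intensities were floored at 16 and log2 was taken. Probe sets with a mean above the median of all (8.93) were fitted with limma 3.58.1 in R 4.3.3, with tethering and number 1 as terms, which kept 22518 probe sets for 11846 genes. Adjustment was by Benjamini and Hochberg, with calls under 0.05. The brightest tested probe set stood for a gene. The labels do not say that arrays of a group came from separate cultures, so p-values measure the spread between these samples, which may be technical.

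The members, lists and rules were chosen with earlier results of these data known, and the lists of ATF4 and CHOP targets and of small nucleolar RNA hosts after values were seen. A gene qualified when both arrays numbered 1 lay outside the range of the other 4 on 1 side. Genes were ordered by the smaller of the tethered and untethered differences. The first 30 higher and 20 lower outside the lists of replication, mitosis, proteasome and unfolded protein response were named, with up to 5 qualifying members per direction of each list described and the 10 smallest p of each test. A list was described with at least 10 members tested and a median at least 0.3 from that of all genes, or at least 33.3% of its members qualifying 1 way. Further members and lists are given as contrasts and were chosen after their values were seen. The fits were tested on simulated data. Quantile normalization, median centring, other floors and filters, the replicate block, other summaries of probe sets and leaving out each array were tried.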

Additional observations from a re-analysis of the deposited data

How the results depend on the processing

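Under the 9 alternatives that left out no single array, the 2-fold counts stayed within 1.5 times the main counts. They were 78 higher and 158 lower after quantile normalization. Leaving out each array in turn gave 33 to 135 genes at least 2-fold higher and 158 to 234 lower. The extremes of the first were without tethered and without untethered number 1, where 1 array numbered 1 remains, and without untethered number 2 it was 83. The interaction called 0 to 28 probe sets over arrays left out, and could not be fitted without either array numbered 1 or without both arrays numbered 2, an alternative chosen after seeing the data. Lists at least 0.3 from the median of all genes numbered 10, and 6 to 14 with an array left out, 6 without tethered number 3. Of list medians under alternatives, 338 kept within the spread, 65 moved beyond it and 2 turned: transport from the endoplasmic reticulum to the Golgi to 0.035 with quantile normalization, and NRF2 genes to 0.019 without untethered number 1 (-0.36 to 0.019 over single arrays left out). Of named gene values 685 kept, 41 moved and 4 turned, all of Fry (-2.25 to 0.18 over single arrays left out), to 0.16 without tethered number 2, 0.18 without tethered number 3, 0.15 without untethered number 3 and 0.20 without both arrays numbered 2, where another probe set became the brightest. Same-numbered arrays deviated together for numbers 1 and 3 (correlations 0.710 and 0.711) and less for number 2 (0.075). Deviations were taken from each group's own mean over its 3 arrays. A shift shared by the arrays numbered 1 therefore moves the deviations of the others too, and the correlations are not separate checks. Not every pair passed 0.1, so the numbers were not taken to pair the samples, and whether same-numbered arrays share a culture or batch was not tested. With the replicate block the counts were 53 and 196, both tests called 0, and 1232 and 1504 probe sets had an unadjusted p under 0.05. The cause of the changes was not tested.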
